A study of Oncorhynchus mykiss with 72 samples.

Results

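The comparison described here is that of redband trout of the desert strain, Little Jacks Creek, after 3 days at 28 °C with fish of the same strain and day at 15 °C, the control temperature. It was defined by the strain, temperature and day named in the column headings of the Little Jacks table, and it takes 6 libraries of the 72 in the series, 3 at each temperature. Redband trout are inland rainbow trout (Oncorhynchus mykiss), and the series also holds a montane strain, Keithly Creek, an F1 cross of both strains, and days 1, 7 and 28. All 72 libraries were made from total RNA of gill depleted of ribosomal RNA. The RNA of 3 fish samples that shared a rearing tank was pooled for each library, so a library is a pool and not a fish. The labels name no transgene, drug or mutation, and they give no age of the fish. The question the design puts to these libraries is which gill transcripts differ in level after 3 days of heat, and whether that difference is the same on other days and in fish of other origin.

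The gill is the organ of gas exchange, ion transport and acid-base balance in fish, and its thin epithelium takes the temperature of the water. Heat unfolds proteins, and in animal cells heat shock factor then switches on genes of chaperones, the proteins that refold or hold unfolded ones. In fish held at high temperature, this early induction is known to be followed by slower changes in metabolism, ion transport and immunity. Which of these classes the features below belong to cannot be said, because their identifiers are bare numbers: 0 of 25137 were found in the reference list of genes. The labelled tissue could not be checked against gill markers for the same reason, and the features named by the files were 9 ribosomal RNA features.

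The 6 libraries gave 13.1, 9.25 and 7.72 M recovered reads (M, mega) at 28 °C and 7.29, 3.39 and 4.06 M at 15 °C. A count of 3 reads was worth 0.222 to 0.753 deposited units. Values are read counts scaled by the authors to an effective library size, and are called normalised values here. Across 15975 features, the correlation of log2 values was 0.942 to 0.957 between the 28 °C libraries, 0.951 to 0.960 between the 15 °C libraries, and 0.873 to 0.886 between temperatures. The 28 °C libraries of day 3 had a median SD of 0.216 on the log2 scale. It was 0.397, 0.303 and 0.381 in the 28 °C groups of days 1, 7 and 28. In the 15 °C groups of the strain it ran from 0.1853 on day 1 to 0.2535 on day 7. In the series as a whole, 7 libraries stood apart from their groups in the first component of within-group residuals, and none of them was a day 3 library. The 3 of them in this strain (28 °C day 1 replicate 1, day 7 replicate 3 and day 28 replicate 3) enter the estimate of the spread and the comparisons between days.

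After 3 days at 28 °C, 1004 of 24343 features were higher and 863 were lower than at 15 °C, which is 4.12% and 3.55% of the features tested (limma, adjusted p under 0.05). The risen features had a median log2 fold change of 1.24 and reached 9.73. The fallen features had a median of -1.16 and reached -4.95. By size of fold, 175 features rose and 66 fell at least 4-fold, and 68 rose and 7 fell at least 8-fold. At least 32-fold, 16 rose and 0 fell. Folds are taken after a constant is added to each value, so a fall is limited by the level at 15 °C. A rise has no such limit. The largest folds were thus out of reach for falls of features low at 15 °C. The part of this limit in the counts was not tested, so they are not read as a lopsided response. Values of the groups did not overlap in 998 of the risen and 856 of the fallen features. Of all features, 34% had groups that did not overlap, 16.9% with higher and 17.1% with lower values at 28 °C. The calls use the same libraries, which favours groups that do not overlap. An unadjusted p under 0.05 was found for 5249 features.

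The count changed with the libraries fitted, for a cause that was not tested. It was 4125 (2121 higher, 2004 lower) without the libraries that stood apart, and 1867 of these were the features called above. Leaving out 1 day 3 library gave 1024 without 28 °C replicate 2, 1083 without replicate 3, 1206, 1160 and 1153 without 15 °C replicates 1, 2 and 3, and 1323 without 28 °C replicate 1. The split by direction depends on scaling: reads scaled to the column total gave 289 higher and 724 lower, with the median of all features moved to -0.20.

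**Figure D1:**
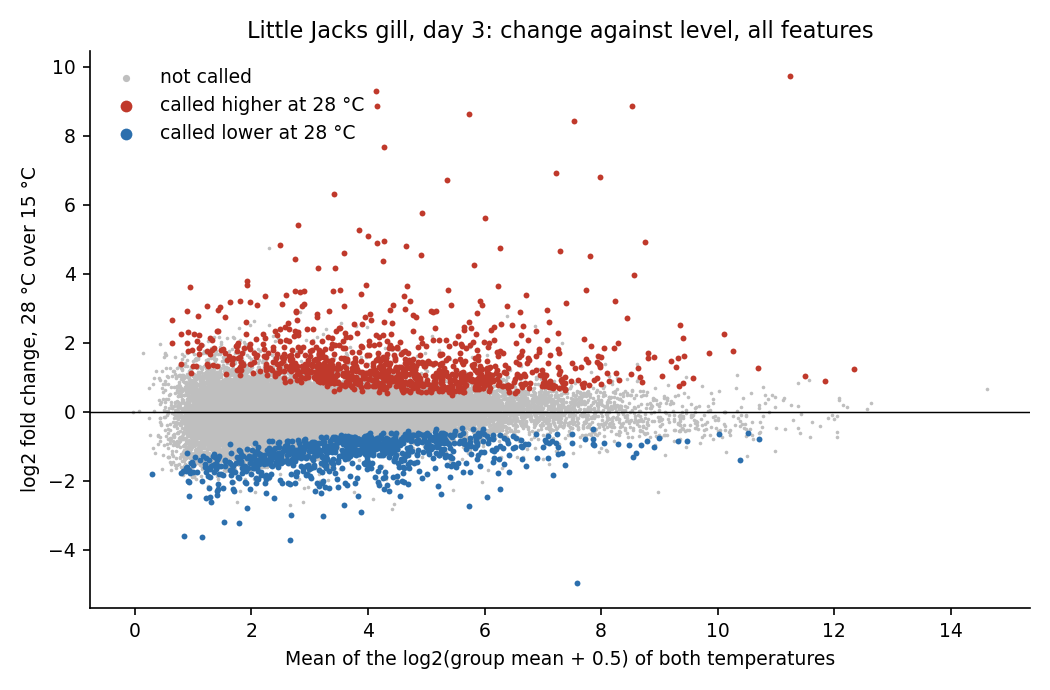
Log2 fold change (28 °C over 15 °C) of every feature on day 3 in Little Jacks, against the mean of its log2 level at both temperatures; colours mark features called higher or lower. The largest rises reach a log2 of 9.73 and the largest fall reaches -4.95, and uncalled features fill the band around 0.

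Feature g01823 had the largest rise. At 28 °C its normalised values were 63969, 83709 and 63952, and at 15 °C they were 68.3, 94.7 and 85.2. The lowest heated library thus lay far above the highest control library. The rise was 9.73 on the log2 scale (SE 0.34, limma adjusted p 3.251e-13) and 9.52 to 9.83 under 18 other settings. It took 6.59%, 8.01% and 6.57% of all reads in the heated libraries, where it was the most abundant feature, and a mean of 0.00961% in the controls.

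Feature g14470 had the next largest rise among called features that met the conditions for naming. These were a mean of at least 5, more than 3 reads in each of the 6 libraries and groups that do not overlap. Its values were 5798, 11708 and 6330 at 28 °C and 11.8, 25.4 and 13.3 at 15 °C. The second heated library was highest for both g01823 and g14470, and the groups were far apart in each. The log2 fold change of g14470 was 8.85 (SE 0.40, limma adjusted p 1.087e-11).

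Feature g13641 had the largest fall. It was at 737.2, 766.1 and 1449.9 at 15 °C and at 12.5, 67.2 and 31.0 at 28 °C. The groups did not overlap, and on the log scale the heated libraries spread further apart than the controls. The log2 fold change of g13641 was -4.95 (SE 0.79, limma adjusted p 0.00047), between -5.53 and -4.34 under 18 other settings.

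Feature g20994 had the next largest fall among features that met the same conditions as g14470. Its values were 25.3, 12.1 and 39.5 at 15 °C and 0.665, 3.84 and 4.16 at 28 °C, the lowest of which is 9 reads. The groups did not overlap, at levels far below those of g13641. The log2 fold change of g20994 was -3.03 (SE 0.63, limma adjusted p 0.00489), and the largest adjusted p under 18 other settings was 0.0357.

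**Figure D2:**
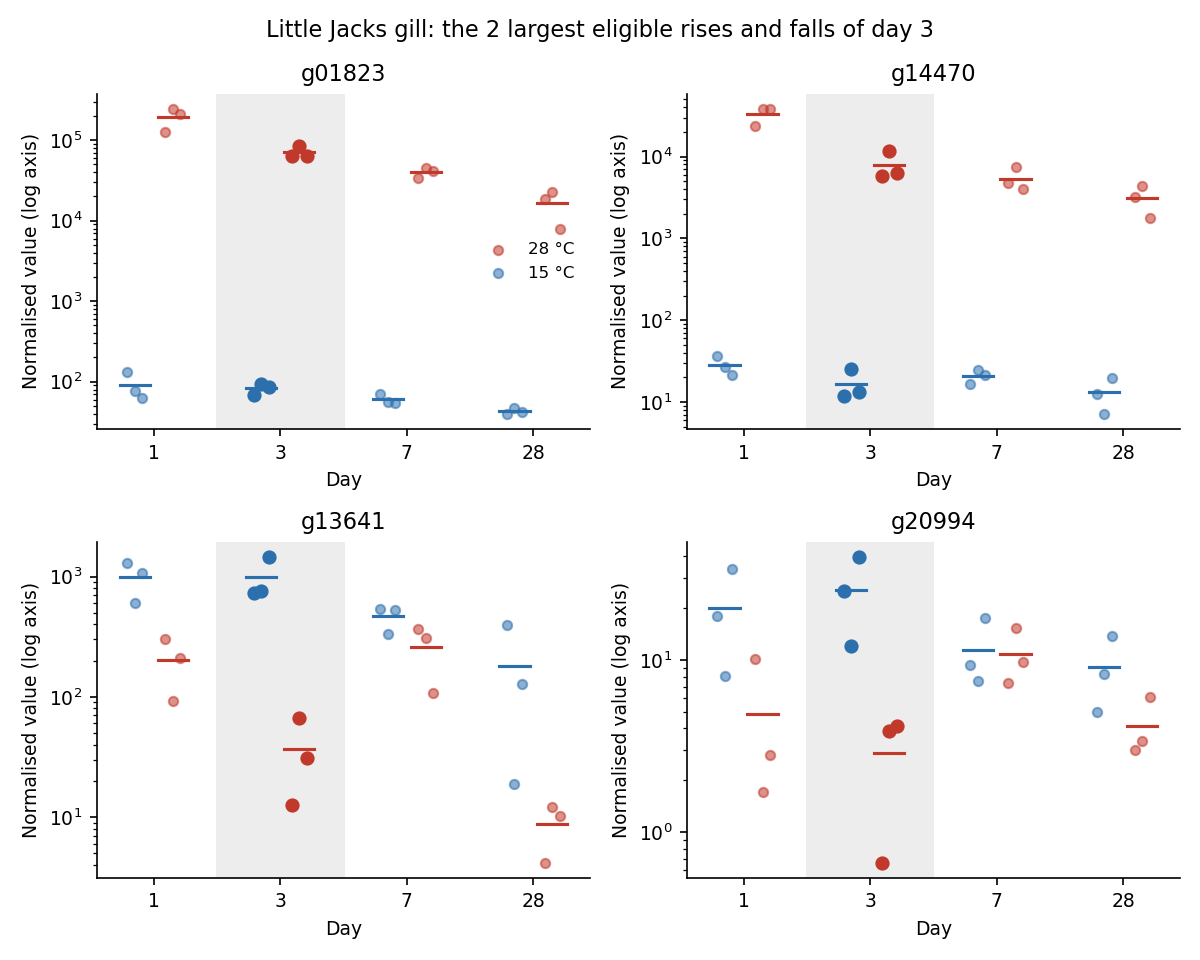
Normalised values (log axis) of g01823, g14470, g13641 and g20994 in each Little Jacks library by day (1, 3, 7 and 28), with day 3 shaded; points are libraries and lines are group means. The heated and control libraries of day 3 do not overlap in any of the 4 features, and g01823 falls from a 28 °C mean of 70540 on day 3 to 16450 on day 28.

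Behind these, features that met the conditions for naming were ranked by fold change. Those ranked 3 to 7 by rise had 28 °C means of 426.9 to 3498 and 15 °C means of 2.17 to 22.8. Their log2 fold changes lay between 6.72 and 8.63. The features ranked 8 to 20 had log2 fold changes of 4.27 to 5.76, with 28 °C means from 84.7 to 2439. Among the falls, ranks 3 to 20 had log2 fold changes of -2.98 to -2.19, and their 15 °C means ran from 9.40 to 166.2. All 40 met the same conditions as the named features, and 1592 of the called features met them (891 higher, 701 lower). Ranks are given within these 1592. Some called features that changed more did not meet the conditions and are not ranked.

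A few features went from almost no reads to a clear level or the reverse. Of 16 features with at most 3 reads in each 15 °C library, 8 were called higher, and 6 of these had more than 3 reads in each heated library. The 28 °C means of the 8 ran from 3.46 to 401.9, with a median of 6.45. Of 3 features with at most 3 reads in each heated library, 3 were called lower, from 15 °C means of 1.77 to 7.79. Over all features tested, 4.12% were called higher and 3.55% lower. The 8 of 16 and 3 of 3 are not read as rates, because a feature so low in 1 group may pass a filter on low values through the other group. No fold is given for these features, since 1 of their groups lay at the limit of counting.

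Rises and falls were found in each class of abundance from 1 normalised unit upwards. Abundance was taken from the 15 °C libraries of days 1, 7 and 28. Their values do not enter the day 3 fold change, but they do enter the estimate of the spread behind the calls. At 1 to 10 normalised units, 2.73% of 13466 features rose and 2.04% fell. At 10 to 100 units, 5.58% of 9608 rose and 5.46% fell, and at 100 to 1000 units 7.02% of 1125 rose and 5.16% fell. Of the 98 features at 1000 units and above, 4 rose and 5 fell. Over all features, 4.12% rose and 3.55% fell. Differences between the classes, and the part of counting error in them, were not tested. The 46 features under 1 unit are not read, because a feature that low at 15 °C may pass a filter on low values through its heated libraries. The authors' own filter on low features is not given in the sources used here.

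Heated gill libraries were more concentrated on a few features. The 10 most abundant features took 14.5%, 17.0% and 14.5% of reads at 28 °C and 7.83%, 7.11% and 7.86% at 15 °C, with no overlap. The means were 15.3% ± 1.43 and 7.60% ± 0.427 (SD, n = 3), and the 100 most abundant took 33.0% ± 1.61 and 26.8% ± 1.04. The single most abundant feature, g01823 in the heated libraries, took 7.06% ± 0.825 at 28 °C. The most abundant feature at 15 °C took 2.325% ± 0.4725. For each of these measures an exact two-sided permutation test gave p = 0.1, adjusted to 0.15 over 6 tests. The smallest p that 3 against 3 libraries allow is 0.1. The 1004 risen features, which were chosen in these libraries, took 20.0% ± 2.28 of reads at 28 °C and 4.78% ± 0.0785 at 15 °C. The 863 fallen features took 2.08% ± 0.0428 and 5.09% ± 0.106. The share of reads matched to the transcriptome was 27.7% to 34.7% at 28 °C and 10.9% to 33.5% at 15 °C, and its part in these shares was not tested.

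The ribosomal RNA features are what was left after depletion, and they are the RNA of the mitochondrial ribosome (12S and 16S) and of the cytosolic ribosome (18S and 28S). Features of the same kind may share sequence, so reads may have been split among them and single values are uncertain. None of the 9 was called by limma, edgeR or DESeq2 (0 of 9, against 7.67% of all features in limma). All 9 had limma log2 fold changes below 0, from -1.62 to -0.35, and 3 had an unadjusted p under 0.05. Feature rRNA_16S_1 was at 131.9, 88.0 and 109.1 at 28 °C and at 144.5, 247.1 and 254.4 at 15 °C. Its groups did not overlap, as was so with lower values at 28 °C for 17.1% of all features. The log2 fold change of rRNA_16S_1 was -0.94 (SE 0.36, limma adjusted p 0.122). Feature rRNA_12S_1 was at 22.0, 10.8 and 15.4 at 28 °C and at 25.8, 39.7 and 51.4 at 15 °C, also without overlap. Its log2 fold change was -1.25 (limma adjusted p 0.137).

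The other ribosomal features had larger limma adjusted p. Feature rRNA_18S_1 was at 46.6, 43.5 and 27.1 at 28 °C and at 226.9, 35.9 and 201.0 at 15 °C, so the groups overlapped through 1 control library (limma adjusted p 0.544). The most abundant, rRNA_28S_1 and rRNA_12S_2, had 28 °C means of 2237 and 1889 and 15 °C means of 3146 and 2743, with limma adjusted p of 0.742 and 0.327. The groups of rRNA_12S_2 did not overlap, at 1820.4 to 1929.9 at 28 °C and 2090.8 to 3197.5 at 15 °C. Together, the mitochondrial features took 0.212%, 0.200% and 0.216% of reads at 28 °C and 0.278%, 0.420% and 0.383% at 15 °C. The exact permutation p was 0.1, adjusted to 0.15. The nuclear features took 0.240% ± 0.0619 and 0.407% ± 0.0916 (SD, n = 3), with an exact permutation p of 0.2, adjusted to 0.24. Without the libraries that stood apart, limma called 2 of the 9 features lower.

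**Figure D3:**
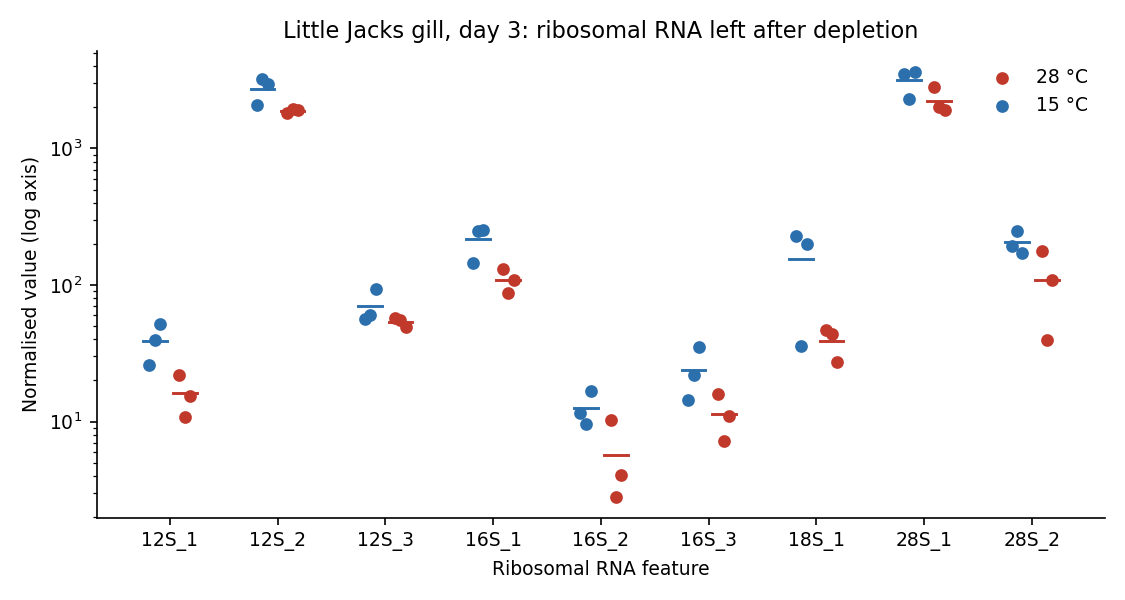
Normalised values (log axis) of the 9 ribosomal RNA features in the day 3 Little Jacks libraries; points are libraries, lines are group means, blue is 15 °C and red is 28 °C. The 28 °C mean lies below the 15 °C mean in each of the 9, and rRNA_18S_1 has 1 control library among the heated ones.

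How far day 3 resembled the other days was measured in the libraries of those days, each against its own 15 °C libraries. All days of the strain shared the same estimate of the spread for a feature. A feature with a small spread was thus favoured for a call on every day, here and below. Of the 1004 risen features, 545 were also called higher on day 1, 352 on day 7 and 289 on day 28. These are 54.3%, 35.1% and 28.8% of the list, against 7.12%, 2.35% and 1.87% of all features. They are 31.4%, 61.6% and 63.7% of the features called higher on those days. The median log2 fold change of the list was 0.96, 0.73 and 0.63 on days 1, 7 and 28, where the medians over all features were -0.04, 0.06 and 0.03.

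Of the 863 fallen features, 365 were also called lower on day 1, 187 on day 7 and 211 on day 28. These are 42.3%, 21.7% and 24.4% of the list, against 8.33%, 1.49% and 1.93% of all features. The medians of this list were -0.69, -0.63 and -0.61, a narrower range over the days than that of the risen features. Calls in the opposite direction were rare: 16 of the risen features were called lower on day 1 and 6 on day 28, and 8 of the fallen were called higher on day 1. On day 7 neither list had such a feature.

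By number of days, 174 of the risen features (17.3%) were called higher on each of the other days and 341 (34%) on none of them. Among the fallen, these were 66 (7.65%) and 358 (41.5%). A call on day 3 alone does not show that the day differed. Of the 341, 162 had the same sign on all days, and 52 had an effect on day 3 that differed from that of another day by the test of the difference, 50 of them from day 1. Of the 358, 235 had the same sign on all days and 23 differed, all of them from day 1. Over all features, 1.09% had a positive and 1.56% a negative difference from day 1. Both sets were chosen by the same day 3 values that the test of the difference uses, which favours a difference. The counts are thus not read as a rate, and the share of all features with 1 sign on all days is not given.

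**Figure D4:**
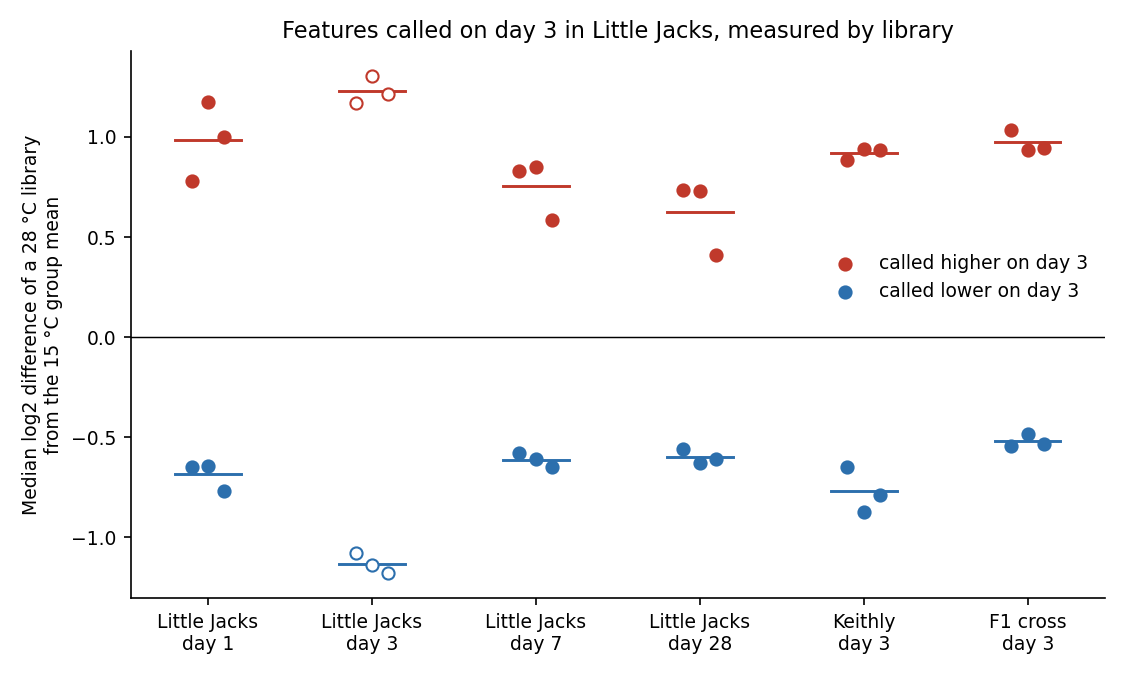
Median log2 difference of each 28 °C library from the 15 °C group mean, over the 1004 features called higher (red) and the 863 called lower (blue) on day 3 in Little Jacks; lines are group means, and open points are the libraries that chose the lists. The day 3 libraries lie at 1.17 to 1.31 and -1.18 to -1.08, and every other library lies on the same side of 0.

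The difference between day 3 and day 1 was tested directly. The effect differed in 644 features (2.65%), 265 in the positive direction (1.09% of those tested) and 379 in the negative (1.56%). Of the 379 negative differences, 341 were called higher on day 1, and 110 of these were still called higher on day 3. Of the 265 positive differences, 196 were called lower on day 1, and 2 of these were also called lower on day 3. Fewer features moved further from control. A larger rise, called on day 3 and of the same sign on day 1, was found in 12 features and a deeper fall in 16. Calls in opposite directions on these days were found in 16 of the positive and 8 of the negative features. Over all features, 7.12% were called higher and 8.33% lower on day 1, and 4.12% and 3.55% on day 3. The features were chosen by a difference of the same day 1 and day 3 values, which favours such calls. The counts are thus not read as rates. The median difference was 1.60 in the positive features and -1.87 in the negative ones, and the extremes were 3.97 and -7.09.

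These counts rest on the day 1 libraries as well. Without the libraries that stood apart, 1830 features differed (887 positive, 943 negative), and leaving out 1 library at a time gave 360 to 805. Reads scaled to the column total gave 372 positive and 46 negative differences, with the median of all features moved by 0.61.

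Fewer features differed between day 3 and day 7 or day 28 by limma, and the counts depend on the method. Against day 7, 2 features had a more positive effect on day 3 (0.00822% of those tested) and 0 a more negative one (limma; 1489 at an unadjusted p under 0.05, with 1 feature called by edgeR and 11 by DESeq2 in either direction, 36 with array weights and 17 without the libraries that stood apart). Against day 28, 24 features differed (0.0986%), 22 with a more positive and 2 with a more negative effect (0.0904% and 0.00822%). This count was 0 with reads scaled to the column total, 15 with edgeR, 138 with DESeq2 and 507 with array weights. It was 101 without the libraries that stood apart and 3 to 21 with 1 library left out. Of the 22, 21 were called higher on day 3, and 7 were called lower on day 28, against 4.12% and 1.93% of all features. The 22 were chosen by a difference of the same values, which favours such calls. Both features that differed from day 7 were also called higher on day 3 in Keithly and in the F1 cross. Of all features, 4.03% and 6.38% were called higher there.

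One of these 2, the feature ranked 10 by rise, stood out on day 3 and was singled out after its values were seen. At 28 °C it was at 54.7, 122.4 and 103.0 on day 3, at 12.9, 35.7 and 26.6 on day 1, at 4.26, 5.69 and 3.36 on day 7, and at 26.6, 24.4 and 13.1 on day 28. Its 15 °C libraries of day 3 were at 3.36, 1.51 and 1.74. It thus lay above all 12 control libraries of the strain on days 1, 3 and 28 and within their range on day 7. Its log2 fold change was 2.01, 5.10, 0.19 and 1.98 on days 1, 3, 7 and 28. The difference of day 3 from day 7 was 4.91 (SE 0.54, limma adjusted p 0.000399) and that from day 28 was 3.12 (SE 0.54, limma adjusted p 0.0274).

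The other feature that differed from day 7 was at 88.6, 99.3 and 105.6 at 28 °C on day 3, and at 18.7, 15.3 and 31.4 at 15 °C. On day 7 its heated libraries were at 15.9, 30.4 and 22.3, among the controls at 26.7, 29.5 and 18.8. The difference of day 3 from day 7 was 2.35 (SE 0.37, limma adjusted p 0.0378).

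For g01823, g14470, g13641 and g20994, no difference of the day 3 effect from another day passed the test. Feature g01823 had 28 °C means of 194900, 70540, 40480 and 16450 on days 1, 3, 7 and 28, and its 15 °C means lay between 43.2 and 90.3. The difference of its effect on day 3 from day 1 was -1.35 (SE 0.49, limma adjusted p 0.162). Feature g14470 had 28 °C means of 33170, 7945, 5363 and 3119 on the same days. Its effect on day 3 differed from day 1 by -1.32 (SE 0.56, limma adjusted p 0.261).

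The means of g13641 varied by day at both temperatures. Its 15 °C libraries of day 3 differed from the other 15 °C days by a log2 of 1.42, which did not pass (limma adjusted p 0.7745). Change over days at 28 °C was not tested. Its 15 °C means were 990.3, 984.4, 467.2 and 182.2 on days 1, 3, 7 and 28, and its 28 °C means were 200.9, 36.9, 261.3 and 8.77. On day 28 the controls alone ran from 18.9 to 399.4. Its effect on day 3 differed from day 7 by -3.96 (SE 1.12, limma adjusted p 0.675).

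Feature g20994 had 15 °C means of 20.0, 25.6, 11.5 and 9.06 and 28 °C means of 4.86, 2.89, 10.8 and 4.14 on days 1, 3, 7 and 28. It was thus near its control on day 7, with a log2 fold change of -0.05. The difference of day 3 from day 7 was -2.98 (SE 0.90, limma adjusted p 0.682).

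The 15 °C libraries of day 3 were also set against those of the other days, as a measure of how far they stand from other controls. No feature differed (0 higher and 0 lower of 24343, limma; 1524 at an unadjusted p under 0.05). edgeR gave 0 features and DESeq2 21, and limma without the libraries that stood apart gave 34.

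In the montane strain, Keithly, and in the F1 cross, day 3 of heat was measured against their own 15 °C libraries. Of the 1004 risen features, 996 were measured in Keithly and 1000 in the F1 cross. Of these, 472 (47.4%) and 495 (49.5%) were called higher there, against 4.03% and 6.38% of all features. They are 48.4% and 32.3% of the features called higher in those strains. The same sign was found for 93.1% and 90.8% of the list, against 48.2% and 58.6% of all features. The medians were 0.90 in Keithly and 0.98 in the F1 cross, where those of all features were -0.02 and 0.15.

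Of the 863 fallen features, 280 of 857 measured were called lower in Keithly and 215 of 849 in the F1 cross. These are 32.7% and 25.3%, against 3.22% and 3.94% of all features. The medians were -0.79 in Keithly and -0.52 in the F1 cross. The 3 control libraries of the F1 cross included 1 of 0.614 M reads, and its part in these values was not tested.

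The difference between strains was tested over the 23234 features present in all tables, as a difference of within-strain effects. Between Little Jacks and Keithly, 21 features differed, 18 in the positive direction and 3 in the negative (0.0775% and 0.0129%). Of the 18, 9 were called higher in Little Jacks, 12 were called lower in Keithly, and 4 were both. Over all features, 4.12% were called higher in Little Jacks and 3.22% lower in Keithly. The 18 were chosen by a difference of the same values, which favours such calls, so the counts are not read as rates. None of the 3 negative differences was in the 994 risen features in this fit. Those were chosen by a high effect in the same Little Jacks libraries, which works against a smaller rise there. With 0.0129% of all features negative, the absence is not read as a result about them. An unadjusted p under 0.05 was found for 1321 of all features (limma), and edgeR called 5 smaller effects among all features. The count of 21 became 51 without the libraries that stood apart and 5 to 16 with 1 library left out. Reads scaled to the column total gave 14 positive and 0 negative differences.

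The largest of these differences, in a feature singled out after its values were seen, had effects of opposite direction in the parental strains. In Little Jacks it was at 51.0, 146.8 and 50.7 at 28 °C and at 4.52, 0.502 and 0.872 at 15 °C, the last 2 being 2 and 4 reads. In Keithly it was at 0.879, 0.965 and 1.79 at 28 °C and at 20.9, 23.3 and 24.9 at 15 °C. In the F1 cross it was at 38.3, 54.7 and 24.1 at 28 °C and at 55.2, 60.2 and 23.3 at 15 °C. The groups were apart in both parental strains and overlapped in the cross. The difference in log2 fold change between Little Jacks and Keithly was 9.08 (SE 1.24, limma adjusted p 9.195e-06).

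Between Little Jacks and the F1 cross, 276 features differed (1.19%), 166 in the positive direction and 110 in the negative (0.714% and 0.473%). Of the 166, 126 were called lower in the F1 cross and 42 were called higher in Little Jacks. Of the 110, 67 were called higher in the F1 cross and 31 were called lower in Little Jacks. Over all features, 6.38% were called higher and 3.94% lower in the F1 cross, and 4.12% and 3.55% in Little Jacks. Both sets were chosen by a difference of the same values, which favours such calls, so the counts are not read as rates. The median of all features was -0.16 in this difference. Leaving out 1 library gave 1338 without 15 °C replicate 3 of the F1 cross (280 positive, 1058 negative), 447 without its replicate 2, and 160 to 208 without any other. Without the libraries that stood apart there were 487.

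The effects on g01823 and g14470 differed between strains by less than their standard errors. Feature g01823 had day 3 means of 70540 ± 11400 (SD, n = 3) in Little Jacks, 77570 ± 19900 in Keithly and 55950 ± 24130 in the F1 cross. Its log2 fold changes were 9.73, 9.73 and 9.44, and the difference of Little Jacks from Keithly was -0.0043 (SE 0.59, limma adjusted p 0.9997). Feature g14470 had log2 fold changes of 8.85, 8.94 and 8.75, and its difference of Little Jacks from Keithly was -0.09 (SE 0.58, limma adjusted p 0.9997). Their differences of Little Jacks from the F1 cross were 0.29 (SE 0.59, limma adjusted p 0.902) and 0.10 (SE 0.58, limma adjusted p 0.971).

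The named falls had fold changes nearer to 0 in the other strains, and the difference passed the test for g13641 against the F1 cross. Both were named for their large falls in these Little Jacks libraries, whose values the test also uses. That choice favours a smaller change elsewhere. Feature g13641 was at 313.1, 411.6 and 262.9 in Keithly at 28 °C and at 537.4, 475.8 and 1150.5 at 15 °C. In the F1 cross it was at 312.1, 104.7 and 157.5 at 28 °C and at 223.3, 23.1 and 239.0 at 15 °C. The groups did not overlap in Keithly and overlapped in the cross, with log2 fold changes of -1.04 (limma adjusted p 0.0914) and 0.68 (limma adjusted p 0.766). The difference of Little Jacks from the F1 cross was -5.63 (SE 1.29, limma adjusted p 0.0124), and that from Keithly was -3.91 (SE 1.29, limma adjusted p 0.472).

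Feature g20994 had log2 fold changes of -1.59 in Keithly (limma adjusted p 0.0683) and 0.13 in the F1 cross (limma adjusted p 0.918). Its difference of Little Jacks from the F1 cross was -3.17 (SE 0.88, limma adjusted p 0.0558), and that from Keithly was -1.45 (SE 0.88, limma adjusted p 0.975). Neither passed the threshold.

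**Figure D5:**
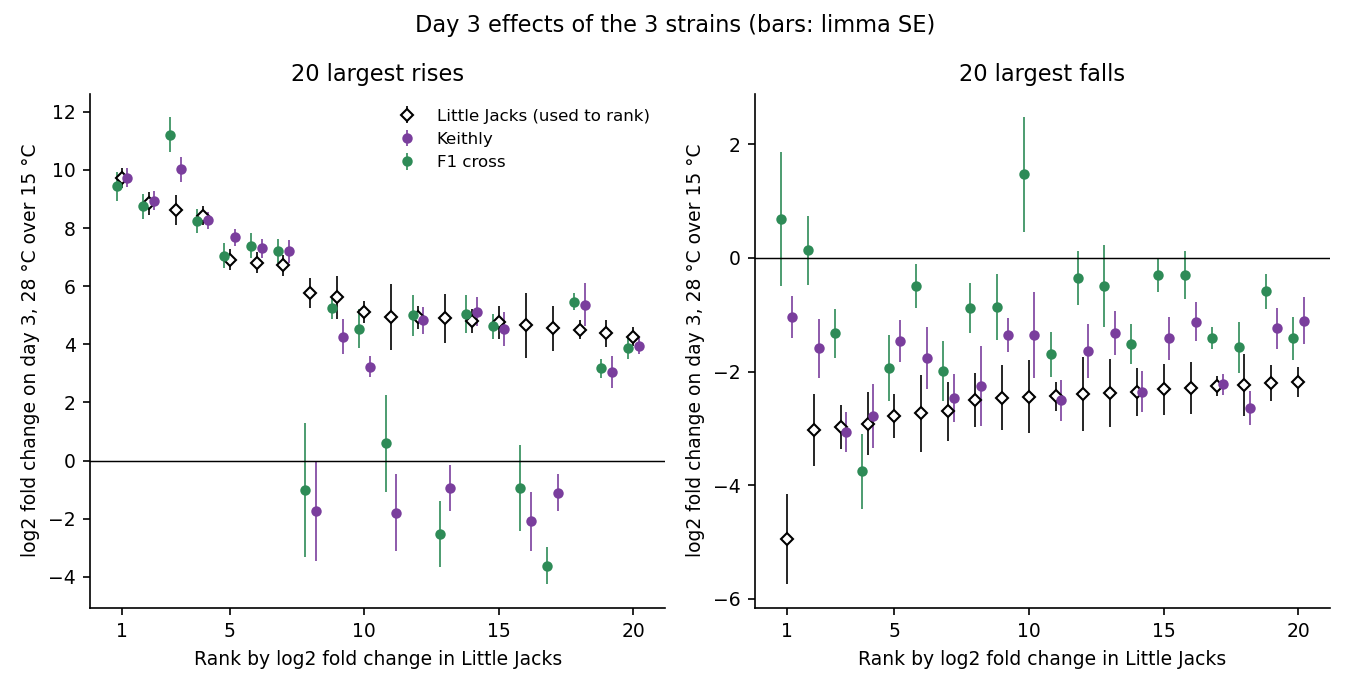
Log2 fold change on day 3 (28 °C over 15 °C) in Little Jacks (open), Keithly (purple) and the F1 cross (green). Bars are limma standard errors. Shown in order of rank are the 20 largest rises and 20 largest falls of Little Jacks among features that met the conditions for naming. Ranks 1 to 7 rose in the 3 strains, and 5 of the 20 rises have a fold change below 0 in Keithly.

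The 20 largest rises were taken among the features that met the conditions for naming. Of these 20, 15 were called higher in Keithly and 15 in the F1 cross, against 4.03% and 6.38% of all features. All 20 had the same sign on days 1, 7 and 28 in Little Jacks, with 18, 16 and 17 of them called. Of all features, 47.2%, 54.6% and 52.3% had that sign on those days, and 7.12%, 2.35% and 1.87% were called higher. The 5 not called in Keithly, at ranks 8, 11, 13, 16 and 17, had fold changes below 0 there. The test of the difference from Keithly was passed at rank 17 and that from the F1 cross at ranks 13 and 17. The ranks were set by the same Little Jacks values that these tests use, which favours a difference.

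The feature at rank 17 was at 72.8, 136.3 and 231.6 in heated Little Jacks libraries, given in order of size, and at 3.25, 4.52 and 9.16 in controls. In Keithly it was at 5.47, 6.87 and 7.91 with heat and at 9.15, 10.8 and 33.6 without. In the F1 cross it was at 3.82, 6.77 and 14.0 with heat and at 79.4, 80.4 and 129.7 without. Within its own table, it was thus higher with heat in Little Jacks and lower with heat in the cross. In Keithly it was not called (limma adjusted p 0.362). Levels were not compared between strains, since each table was normalised on its own.

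The feature at rank 8 varied widely among pools. It was at 77.3, 277.9 and 383.3 in heated Little Jacks libraries and at 2.78, 3.26 and 3.71 in controls. In heated Keithly libraries it ran from 1.93 to 433.5, and in Keithly controls from 21.8 to 184.3. Its difference between Little Jacks and Keithly did not pass (limma adjusted p 0.511), where pools of 1 group in Keithly differed by more than the groups.

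The 20 largest falls were taken under the same conditions. Of these 20, 13 were called lower in Keithly and 8 in the F1 cross, against 3.22% and 3.94% of all features. All 20 had the same sign in Keithly and 17 in the cross, against 51.8% and 41.4% of all features. On each of days 1, 7 and 28 in Little Jacks, 8 were called and 20 had the same sign. Of all features, 8.33%, 1.49% and 1.93% were called lower on those days, and 52.8%, 45.4% and 47.7% had that sign. The test of the difference from the F1 cross was passed by those at ranks 1 and 15, the first being g13641. These ranks too were set by the Little Jacks values that the test uses. For the difference from Keithly, the limma adjusted p lay between 0.472 and 0.9997.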

How the data were processed

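Gill RNA libraries of 3 strains, 2 temperatures and 4 days were sequenced, 3 libraries a group, each from pooled RNA of 3 fish samples per the authors' library table. The authors had used CASAVA 1.8, Bowtie and edgeR, per the submitters' processing notes. Which transcripts were aligned to and how low features were removed is not given in the sources used here. One table per strain was deposited, and its signal is a read count scaled by the authors. The authors' library table also gives quality reads and other quantities such as the matched percent. The Little Jacks table held 24343 features, after 5408 rows without an identifier were left out. Columns were tied to strain, temperature and day by name.

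Values were whole multiples of a step, and 100% came out whole within 0.01 when divided by it. Recovered reads served for depth, shares and count tests. Limits set by reads cover counting error only.

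The test was limma 3.58.1 (R 4.3.3) on log2(value + 0.5), fitted with a trend, with 1 mean for each group of the 24 libraries of the strain. All 72 libraries entered the differences between strains, which compare effects within tables, since each table was normalised on its own. Features needed a value of 1 in 3 libraries, which removed 0. Features were called at a two-sided p under 0.05 after Benjamini-Hochberg adjustment over all features. Fold changes, being on the log2(value + 0.5) scale, understate those of low features. The p-values measure the spread between pools, which may share tanks.

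Alternatives were pseudocounts of 0.1 and 2, filters, 3 scalings of recovered reads, array weights, edgeR 4.0.16 (quasi-likelihood), DESeq2 1.42.0, smaller fits and libraries left out. Shares of reads were compared with exact permutation tests. The scripts were tested on simulated data.

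The features named are the 2 largest rises and 2 largest falls among features that were called, averaged at least 5, had more than 3 reads in each of the 6 libraries and had groups that do not overlap, and all ribosomal RNA features. The comparison, tests and rule were chosen with earlier results of these data known.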

Additional observations from a re-analysis of the deposited data

Results flagged for a closer look

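The effect of heat on day 3 in Little Jacks differed from that on another day, or in another strain, by the test of the difference itself, in the following counts of features. It differed from day 1 in 644 features, from day 7 in 2 and from day 28 in 24. It differed from the effect in Keithly in 21 features and from that in the F1 cross in 276. Among the named features, g13641 had a log2 fold change of -4.95 in Little Jacks, where it fell, and one of 0.68 in the F1 cross, where it was not called (limma adjusted p 0.766), a difference of -5.63 (limma adjusted p 0.0124). The libraries of the F1 cross that this value rests on varied widely for g13641, with 15 °C values of 223.3, 23.1 and 239.0. Feature g13641 was also named for its large fall in the same Little Jacks libraries, which favours such a difference.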

How the results depend on the processing

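The counts compared here are of features that differed between temperatures on day 3 (1867), between day 3 and day 1 (644), day 7 (2) or day 28 (24), between 15 °C days (0), and from Keithly (21) or the F1 cross (276). Switching the filter off changed none of them, and TMM factors within the Little Jacks table changed none of the first 5. Scaling to the column total gave 1013, 418, 1 and 0 for day 3 and for days 1, 7 and 28, and 124 for the F1 cross. Array weights, whose estimation stopped before its tolerance, gave 4653 on day 3, 36 and 507 against days 7 and 28, 28 between 15 °C days and 135 against Keithly. DESeq2 gave 2833, 1095, 11 and 138, and 21 between 15 °C days; edgeR gave 1 and 15 against days 7 and 28. A pseudocount of 2 gave 38 and a mean of at least 5 gave 43 against day 28. Fits on only the groups compared gave 3433 on day 3, 1 and 9 against days 7 and 28, 26 between 15 °C days, 80 against Keithly and 181 (165 positive, 16 negative) against the F1 cross. Without the libraries that stood apart the counts were 4125, 1830, 17, 101, 34, 51 and 487. The cause of these changes was not tested.

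Leaving out 1 library at a time gave 1024 to 1323 on day 3, 360 to 805 against day 1, 1 to 3 against day 7, 3 to 21 against day 28, 0 to 1 between 15 °C days, 5 to 16 against Keithly and 160 to 1338 against the F1 cross. Against day 1 the count moved by over 1.5 times without 28 °C day 3 replicate 1 (389) or 3 (360), 15 °C day 1 replicate 1 (367), 2 (414) or 3 (385), or 15 °C day 3 replicate 3 (402). The named features were called in all 18 settings, with 0 reversals. Among ribosomal features, array weights called 3, the fit on the 6 day 3 libraries 2, and the fit without the libraries that stood apart 2.

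The lists were also chosen and measured without the libraries that stood apart, an alternative chosen after seeing the data. The medians were then 0.67, 0.57 and 0.51 on days 1, 7 and 28 for the risen features, 0.58 in Keithly and 0.66 in the F1 cross. For the fallen they were -0.56, -0.49 and -0.47, -0.58 and -0.39.

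No paired analysis was possible because the labels give no replicate numbers and the number in a column name matched no sample label. Residuals of same-numbered day 3 libraries had correlations of 0.03, 0.04 and -0.10.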
